A study of Mus musculus with 60 samples.

Results

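Amino acid catabolism and the urea cycle were followed through 47 genes of 23126 in the expression table, chosen by name for the enzymes that degrade amino acids in liver and dispose of their nitrogen, and sorted into 11 groups by the amino acid degraded. The choice was made with earlier results of these data known. The data were RNA-Seq libraries of hepatocytes from 8 week-old male C57BL/6J F1 mice whose fathers drank nicotine (NIC) or a control solution of tartaric acid (TA) before mating. From 10 animals (NIC 11 to 15, TA 1 to 5) came cultures of 0 h, 1 h, 3 h and 21 h, and another 21 h culture named 21 h none in the table. All of these were labelled as grown with DMSO and dexamethasone, a synthetic glucocorticoid, and what sets the 21 h none culture apart from the 21 h culture is not given in the sources used here. A further 10 animals gave 1 library each at 2 h, with dexamethasone (2 NIC and 2 TA) or without it (3 NIC and 3 TA), so that 60 libraries from 20 animals were compared. The cells had been released from collagenase-perfused liver together with supporting cells, and non-adherent cells were washed off after plating. Values are given as ppm, the TPM or CPM of the expression table, on which every library has the same total, and are corrected for gene length in 56 libraries but not in the 4 libraries at 2 h with dexamethasone.

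Hepatocytes are the main site of amino acid breakdown in mammals. Each carbon skeleton has its own route, in which a first, often rate-limiting enzyme commits the amino acid and mitochondrial dehydrogenases and carboxylases pass its carbon to central metabolism, while the freed ammonia enters the urea cycle through carbamoyl phosphate synthetase. Many of these genes are known to be induced by glucagon and glucocorticoids and restrained by insulin, and many are expressed mainly in the periportal part of the liver lobule.

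As the genes changed together over culture, the proximal promoters of 4 of them are shown, from tyrosine, tryptophan, histidine and glycine breakdown: the 250 bases before the RefSeq start site (GRCm38.p6), 5′ to 3′ on the gene's own strand, with capitals on any match, on either strand, to 5 motifs. These were TGACG, an arm of the cAMP response element; AGAACA, an arm of the glucocorticoid response element; CAAAG, a core of sites for the liver factor HNF4A; TATAAA, the letters of a common start site element; and CCAAT, those of a common upstream element. The Hpd window holds none of them.
Hpd, chr5:123182724-123182973, minus strand: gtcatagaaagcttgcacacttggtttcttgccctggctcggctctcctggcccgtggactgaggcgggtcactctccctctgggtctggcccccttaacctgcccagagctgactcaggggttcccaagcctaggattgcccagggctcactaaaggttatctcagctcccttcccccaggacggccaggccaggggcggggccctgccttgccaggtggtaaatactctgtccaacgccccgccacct
Tdo2, chr3:81975729-81975978, minus strand: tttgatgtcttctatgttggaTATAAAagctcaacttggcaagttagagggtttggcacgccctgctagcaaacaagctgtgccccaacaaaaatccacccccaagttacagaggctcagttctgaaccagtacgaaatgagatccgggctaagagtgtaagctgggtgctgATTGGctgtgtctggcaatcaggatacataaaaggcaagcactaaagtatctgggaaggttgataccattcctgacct
Hal, chr10:93488518-93488767, plus strand: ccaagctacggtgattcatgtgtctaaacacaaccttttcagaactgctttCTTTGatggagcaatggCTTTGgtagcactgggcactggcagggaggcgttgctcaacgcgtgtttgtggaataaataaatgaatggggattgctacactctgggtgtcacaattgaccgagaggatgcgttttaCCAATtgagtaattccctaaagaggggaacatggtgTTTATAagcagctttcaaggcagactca
Gldc, chr19:30175442-30175691, minus strand: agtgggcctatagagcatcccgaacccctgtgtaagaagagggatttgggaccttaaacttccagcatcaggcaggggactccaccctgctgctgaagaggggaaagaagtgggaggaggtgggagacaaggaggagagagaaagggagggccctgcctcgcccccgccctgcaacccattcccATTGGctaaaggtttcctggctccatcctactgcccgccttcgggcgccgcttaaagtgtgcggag
RefSeq windows were given for 35 of the 47 genes. Among these, CCAAT occurred in 19 genes, and in 33.8% of all 32851 windows of this length. The HNF4A core also occurred in 19 genes, and in 48.6% of all windows. The cAMP arm, the glucocorticoid arm and the start site element occurred in 4 genes each, and in 17.8%, 16.1% and 12.4% of all windows. A gene was counted if any of its windows matched (38 windows for the 35 genes), whereas the percentages are shares of windows. All are matches of letters only.

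At 0 h the genes were abundant. Together they made up 1.95% ± 0.13 of all ppm in NIC cells and 1.75% ± 0.11 in TA cells (SD, n = 5 each). The highest median was that of Cps1 (carbamoyl phosphate synthetase, chr1:67123026-67231259, GRCm38, GENCODE M21), 3010 ppm over the 10 animals, 41st of all genes in the table, followed by Tdo2 (tryptophan 2,3-dioxygenase, 2313 ppm), Arg1 (arginase, 1709 ppm) and Hpd (4-hydroxyphenylpyruvate dioxygenase, 1639 ppm). The ranges over animals overlapped between neighbours in this order (2391 to 3604, 1536 to 2982, 1342 to 2172 and 1154 to 2122 ppm), and in NIC animal 15 Tdo2 (2978 ppm) exceeded Cps1 (2795 ppm). The exception was Ass1 (argininosuccinate synthase, the urea cycle step between Otc and Asl), which was listed at 0 in most libraries and never exceeded 1.63 ppm. As Ass1 is known as an abundant enzyme of liver, this listed level is doubtful and nothing is drawn from it. It fell below the 1 ppm mean required for testing, and 46 genes were tested among 11135. The hepatocyte markers fitted the labelled cell type: the summed level of 11 of them, among them Alb, Ttr and Apoa1, was 143900 to 179400 ppm in NIC cells and 147500 to 188000 ppm in TA cells at 0 h.

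Depth was uneven. Within each of the 2 dates given in the titles of the time course libraries, relative depth estimated from the step size of low values ran from 0.0242 to 1, with the lowest values (0.0898, 0.0338 and 0.0242) in NIC cells of animals 11, 14 and 15 at 21 h. One NIC 21 h none library, taken here as animal 14 by the numbering of its title, is listed as animal 11 in the source table. As these are bulk libraries, fewer hepatocytes and less RNA per hepatocyte cannot be told apart in any result given here.

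The first question was how the pathway changes as hepatocytes stay in culture. At 21 h against 0 h, 44 of 46 genes fell at an adjusted p under 0.05 (limma on log2(ppm + 1), animal as block, Benjamini-Hochberg adjustment over all genes tested), and none rose; of all genes tested 21.7% fell and 29% rose, 50.7% in all. The median log2 difference was -1.13, against 0.12 over all genes. In 40 of 46 genes the level was lower at 21 h in 10 of 10 animals, which held for 7.88% of all genes tested. The genes that did not pass were Cdo1 (log2 difference -0.11 ± 0.14) and Sdsl (-0.71 ± 0.35). All 44 genes were also called lower in each of 31 alternative fits, and 38 were called under Holm's correction. Summed over the 47 genes, 21 h cells had 0.97% ± 0.21 of all ppm in NIC cells and 0.87% ± 0.14 in TA cells (SD, n = 5 each). The plot of summed levels shows the animals.

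**Figure D1:**
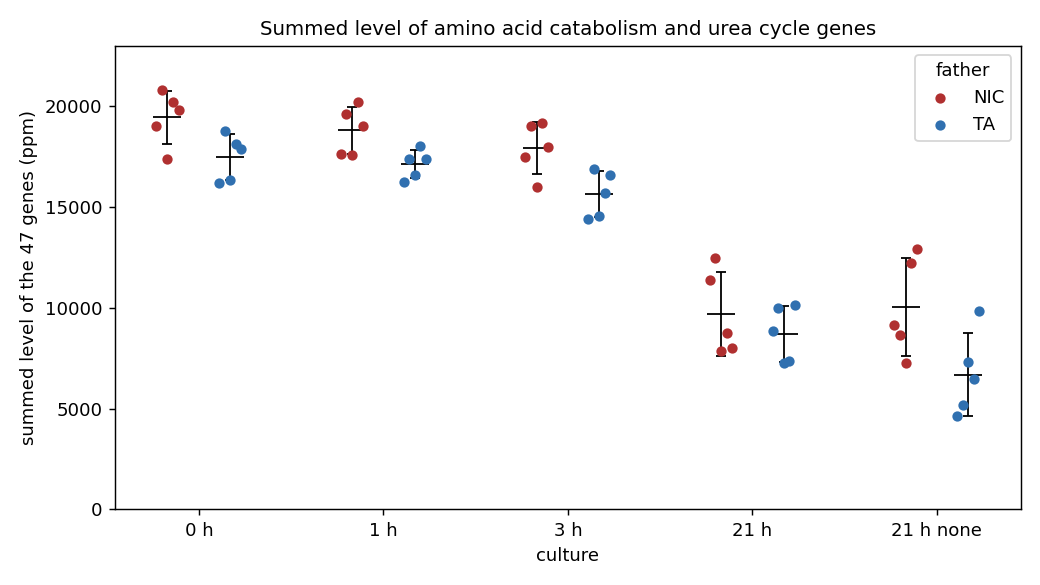
Summed level of the 47 genes in each time course library (y axis, ppm) by culture (x axis) for NIC (red) and TA (blue) animals; each point is 1 animal, and the bar and whiskers are the mean and SD of 5. At 0 h the sums were 16180 to 20820 ppm, and at 21 h they were 7276 to 12450 ppm.

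**Figure D2:**
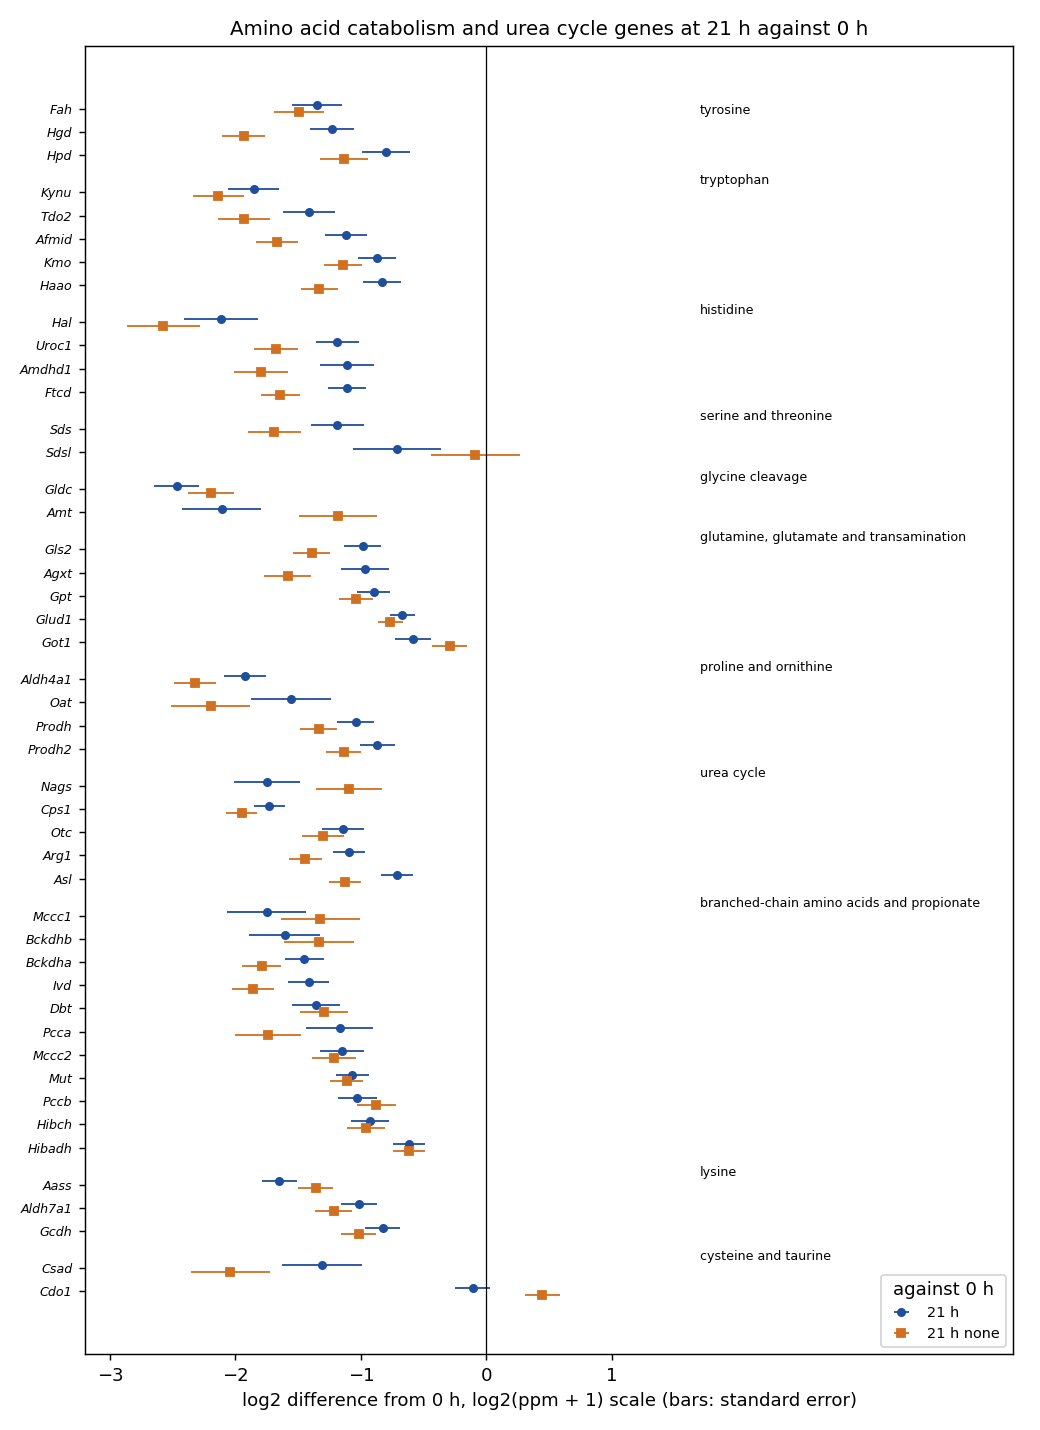
Log2 difference from 0 h (x axis, log2(ppm + 1) scale) for each of the 46 genes tested, sorted by amino acid group, at 21 h (blue circles) and 21 h none (orange squares); whiskers are standard errors from limma over 10 animals. Nearly all points lie left of 0; Cdo1 lies right of it only at 21 h none, and not after rescaling by median ratios.

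Of the groups, that of glycine cleavage fell most, as judged by Gldc and Amt of the mitochondrial complex that splits glycine. Gcsh and Dld, the genes of its other proteins, were counted among the other pathway genes below. Gldc, the decarboxylase of the complex, had 8.12 to 25 ppm (median 15.1) at 21 h, against 61.6 to 126 ppm (median 89) at 0 h. The groups of libraries did not overlap (log2 difference -2.47 ± 0.18, adjusted p = 2.55e-16, limma). Amt, the aminomethyltransferase of the same complex, had 0 to 10.5 ppm (median 7.49) at 21 h and 13 to 54 ppm (median 22) at 0 h (log2 difference -2.11 ± 0.31, adjusted p = 2.03e-07, limma); its 0 values came from the shallow NIC libraries of animals 14 and 15. Serine hydroxymethyltransferase Shmt1, which links glycine to serine, had 5.02 to 30.3 ppm (median 22.9) at 21 h and 83.6 to 148 ppm (median 108) at 0 h, a log2 difference of -2.40 ± 0.18 (adjusted p = 6.89e-16, limma).

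In histidine breakdown all 4 genes fell, with log2 differences of -2.12 to -1.11. Hal, histidine ammonia-lyase, which takes off the amino group in the first step, had 14.1 to 156 ppm (median 51.4) at 21 h and 81.5 to 463 ppm (median 207) at 0 h (log2 difference -2.12 ± 0.29, adjusted p = 3.92e-08, limma). Levels differed widely between animals, and the ranges of the cultures overlapped, although each animal was lower at 21 h than at 0 h. Uroc1 (urocanate hydratase), Amdhd1 (imidazolonepropionase) and Ftcd (formiminotransferase cyclodeaminase), which carry out the later steps, fell by 1.19, 1.11 and 1.11 on the log2 scale.

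All 5 genes of the tryptophan to kynurenine route fell. Kynu, kynureninase, had 10.6 to 32.1 ppm (median 15.6) at 21 h and 49.8 to 94 ppm (median 61.2) at 0 h, with no overlap (log2 difference -1.85 ± 0.20, adjusted p = 1.16e-10, limma). Tdo2, which opens the indole ring and is a classical glucocorticoid-induced enzyme, had 302 to 2375 ppm (median 956) at 21 h and 1536 to 2982 ppm (median 2313) at 0 h (log2 difference -1.41 ± 0.21, adjusted p = 1.59e-07, limma). NIC animal 14, one of the shallow libraries, was listed at 2375 ppm at 21 h, within the 0 h range. Afmid, Kmo and Haao, the formamidase, hydroxylase and dioxygenase of the route, fell by 1.12, 0.87 and 0.83 on the log2 scale. All 3 tyrosine genes fell. Hgd, homogentisate dioxygenase, which had the smallest p of them, had 103 to 317 ppm (median 212) at 21 h and 429 to 568 ppm (median 489.5) at 0 h (log2 difference -1.23 ± 0.17, adjusted p = 5.97e-08, limma). Hpd and Fah (fumarylacetoacetase, the last step) fell by 0.80 and 1.35 on the log2 scale.

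In the urea cycle, Cps1, which fixes ammonia as carbamoyl phosphate and controls entry into the cycle, had 560.3 to 1387 ppm (median 977) at 21 h and 2391 to 3604 ppm (median 3010) at 0 h, without overlap (log2 difference -1.73 ± 0.12, adjusted p = 1.6e-16, limma). The exact sign-flip test over the 10 animals gave p = 0.00195, the smallest it can give. Nags, whose product activates Cps1, fell by 1.75 on the log2 scale, Otc (ornithine transcarbamylase) by 1.15 and Arg1 by 1.10. The level of Nags at 21 h was low, 0 to 14.85 ppm (median 9.07), so depth limits its value. Asl, argininosuccinate lyase, changed least of the 5 tested genes of the cycle (log2 difference -0.71 ± 0.13, adjusted p = 6.39e-06, limma). The gene for the second arginase, Arg2, of the list of other pathway genes, went the other way, with 0 to 82.4 ppm (median 7.09) at 21 h and 0 to 2.03 ppm (median 1.18) at 0 h (log2 difference 2.41 ± 0.43, adjusted p = 6.90e-06, limma). Both extremes at 21 h came from NIC animals (median 4.94 ppm), among them those with shallow libraries. TA animals had 5.13 to 11.1 ppm of Arg2 (median 7.22) at 21 h.

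All 4 proline and ornithine genes fell. Aldh4a1, which oxidises glutamate semialdehyde from both amino acids, had 16.2 to 65.2 ppm (median 36.9) at 21 h and 90.8 to 181 ppm (median 143) at 0 h, without overlap (log2 difference -1.92 ± 0.17, adjusted p = 6.93e-14, limma). The related oxidases Prodh (proline) and Prodh2 (hydroxyproline) moved by similar amounts. Prodh had 23.9 to 83.9 ppm (median 50.9) at 21 h and 65.7 to 139 ppm (median 104) at 0 h (log2 difference -1.04 ± 0.15, adjusted p = 6.84e-08, limma), and Prodh2 had 30 to 64.2 ppm (median 50) at 21 h and 69.6 to 110.0 ppm (median 84.4) at 0 h (log2 difference -0.87 ± 0.14, adjusted p = 8.05e-07, limma). The difference between the paralogs was not tested.

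Of the 11 branched-chain and propionate genes all fell, by 0.62 (Hibadh) to 1.75 (Mccc1) on the log2 scale. Bckdha, a subunit of the branched-chain keto acid dehydrogenase that commits leucine, isoleucine and valine to oxidation, had 33.6 to 186 ppm (median 44.1) at 21 h and 123 to 196 ppm (median 151) at 0 h (log2 difference -1.45 ± 0.16, adjusted p = 7.36e-11, limma). It was lower in 9 of 10 animals, the exception being NIC animal 14, one of the shallow libraries, with 186 ppm. Mccc1, a subunit of the leucine-route methylcrotonyl-CoA carboxylase, had 0 to 17 ppm (median 10.6) at 21 h and 8.01 to 33.6 ppm (median 21.5) at 0 h (log2 difference -1.75 ± 0.31, adjusted p = 7.48e-06, limma), again with its 0 values in NIC animals 14 and 15. For lysine, Aass, the first enzyme of its main route, had 51.6 to 155 ppm (median 93.8) at 21 h and 259.7 to 425 ppm (median 277) at 0 h, without overlap (log2 difference -1.65 ± 0.14, adjusted p = 5.68e-14, limma); Aldh7a1 and Gcdh, further down, fell by 1.01 and 0.83.

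The 5 glutamine, glutamate and transamination genes fell least among the groups of more than 2 genes, by 0.59 (Got1) to 0.99 (Gls2) on the log2 scale. Gls2, the liver glutaminase, had 87.7 to 172 ppm (median 129.7) at 21 h and 226 to 300.2 ppm (median 261) at 0 h, without overlap (log2 difference -0.99 ± 0.15, adjusted p = 2.18e-07, limma).

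The pair Sds and Sdsl, neighbouring genes on chromosome 5 (chr5:120476526-120483932 and chr5:120458186-120472810, GRCm38), differed in level and in what the test found. Sds, serine dehydratase, had 104 to 351 ppm (median 214) at 21 h and 312 to 679.8 ppm (median 449.7) at 0 h (log2 difference -1.19 ± 0.21, adjusted p = 6.55e-06, limma). Sdsl, serine dehydratase-like, had 0 to 37.6 ppm (median 9.99) at 21 h and 7.14 to 29.7 ppm (median 11.6) at 0 h (log2 difference -0.71 ± 0.35, adjusted p = 0.0845, limma), and was lower in 6 of 10 animals. NIC animal 13 had 29.7, 32.8, 35.1 and 37.6 ppm of Sdsl at 0, 1, 3 and 21 h and 41.3 ppm at 21 h none, the highest of the 10 animals in every one of these cultures. In cysteine and taurine metabolism, Csad (cysteine sulfinate decarboxylase) had 27.6 to 219.8 ppm (median 63.3) at 21 h and 72.8 to 361 ppm (median 172) at 0 h (log2 difference -1.31 ± 0.32, adjusted p = 0.000571, limma). Cdo1, cysteine dioxygenase, which supplies its substrate, had 520.1 to 1596 ppm (median 849) and 695 to 1242 ppm (median 909) in these cultures and was lower in 7 of 10 animals.

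**Figure D3:**
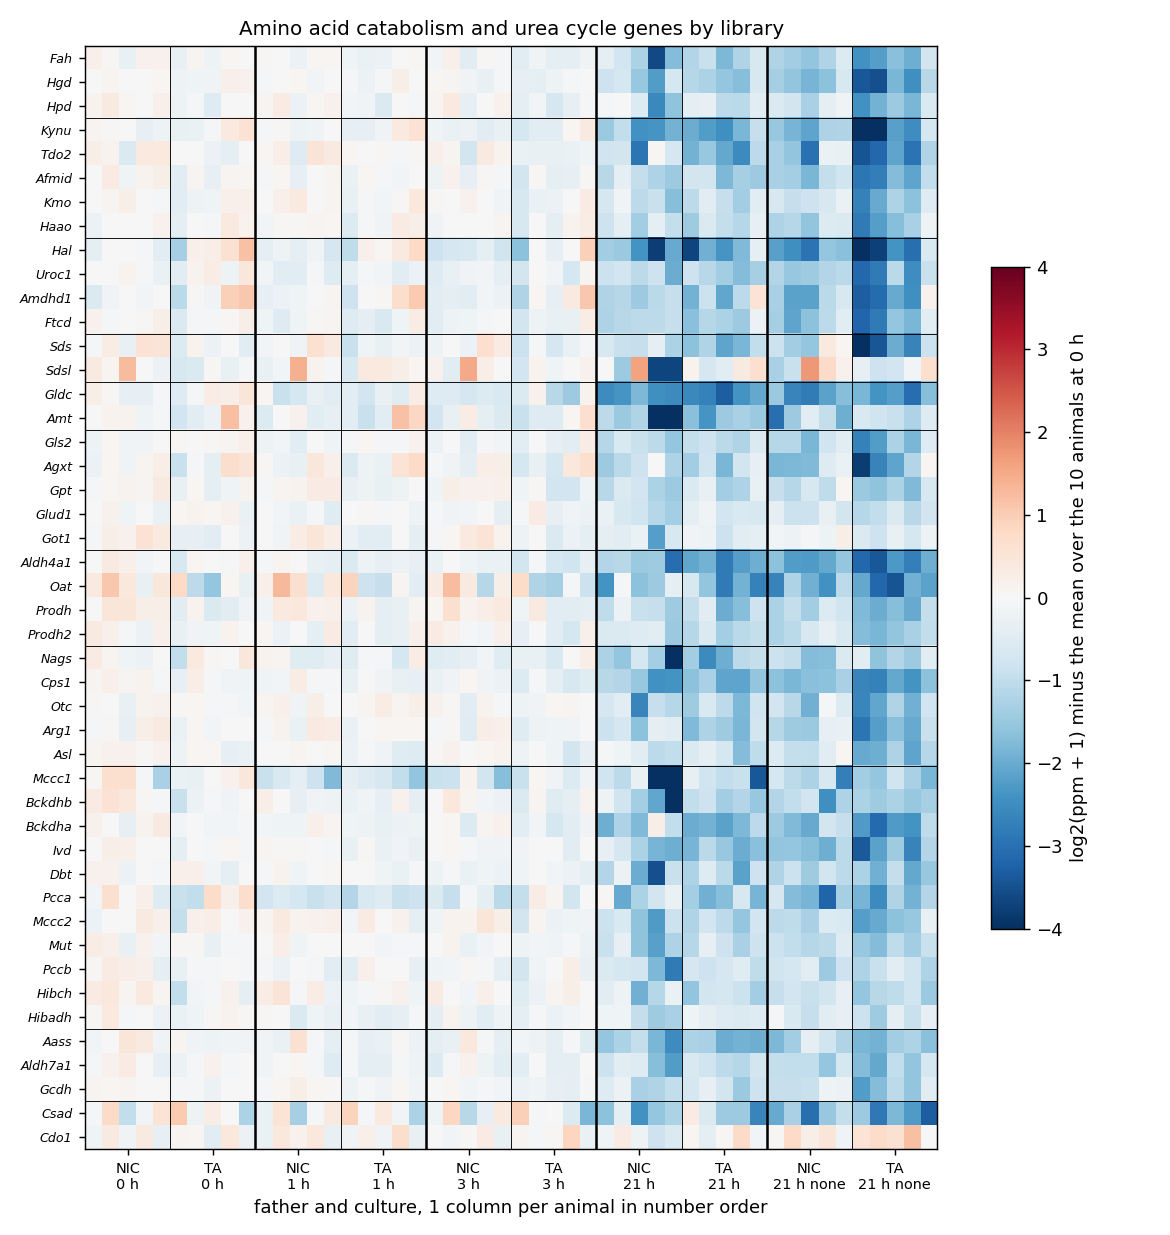
Difference of each gene from its own mean at 0 h (colour, log2(ppm + 1) scale; the scale ends at 4 either way) in the 50 time course libraries. Rows are the 46 genes tested by amino acid group and columns are single animals, NIC left of TA within each culture; the blue field begins at 21 h, the 0 values of Amt, Mccc1 and Sdsl in the shallow libraries of NIC animals 14 and 15 are among the darkest cells, and Sdsl stands out in NIC animal 13.

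Other genes of these pathways, 64 by name with 59 tested, moved in the same direction. At 21 h against 0 h 46 of 59 fell and 6 rose, with a median log2 difference of -0.85. Of all 11135 genes tested 2418 fell and 3232 rose, with a median of 0.12. Those that fell most were Hykk (hydroxylysine kinase), with 0 to 11.4 ppm (median 1.27) at 21 h and 10.1 to 24.2 ppm (median 19) at 0 h, Suox (sulfite oxidase), with 0 to 33.5 ppm (median 14.2) and 54.9 to 102 ppm (median 77.8), and Shmt1. The log2 differences were -2.69 ± 0.28 for Hykk and -2.64 ± 0.27 for Suox (adjusted p = 1.76e-11 and 1.89e-11, limma). Their 0 values at 21 h came from NIC animals, among them those with shallow libraries. The lowest TA values at 21 h were 0.665 ppm of Hykk and 13.01 ppm of Suox. Among those that rose most were Arg2 and Asrgl1 (an asparaginase; log2 difference 1.25 ± 0.33, adjusted p = 0.00128, limma).

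Markers of other cells also changed between these cultures. Summed levels at 21 h and at 0 h were 204 to 1887 and 95.8 to 314 ppm for 12 Kupffer cell markers (7 rose and 3 fell), 62.8 to 523 and 107 to 226 ppm for 12 endothelial markers (3 rose and 7 fell) and 21.5 to 2388 and 28.8 to 54.1 ppm for 12 stellate markers (7 tested, 3 rose). The 10 biliary markers (5 tested) summed to 43.9 to 255 ppm at 21 h and 13.6 to 110 ppm at 0 h, and the 9 lymphocyte markers in the table to 0.602 to 36.8 and 1.34 to 13.2 ppm. Of the 11 hepatocyte markers 9 fell, with a median log2 difference of -0.46, and their sum at 21 h was 93460 to 190300 ppm, against 143900 to 188000 ppm at 0 h. Of all 11135 genes tested, 3232 rose and 2418 fell. The part of the marker shifts in the results above was not tested.

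At 1 h against 0 h no gene of the 46 passed limma's test (3, or 6.52%, at an unadjusted p under 0.05, against 3.7% of all genes), with 0.00898% of all genes called, and at 3 h against 0 h none passed (3 at an unadjusted p under 0.05, against 8.93% of all genes), with 0.0988% of all genes called higher and 0.0359% lower (0.135% in all). At 3 h, 42 of 46 log2 differences were negative, with a median of -0.15, against -0.09 over all genes. All 10 animals were lower than at 0 h in 2 of the 46 genes at 1 h (2.13% of all genes) and in 6 at 3 h (3.48% of all genes). Gldc had the smallest p at 3 h, with 31.6 to 101 ppm (median 60), a log2 difference of -0.57 ± 0.18 from 0 h (adjusted p = 0.203, limma). With libraries weighted by their quality in limma, 2 genes passed at 1 h (Pcca and Mccc1) and 4 at 3 h (Gldc, Cps1, Aldh4a1 and Mccc1), all lower, with 2.37% and 8.56% of all genes called lower in those fits. All comparisons with 0 h share the same 0 h libraries.

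**Figure D4:**
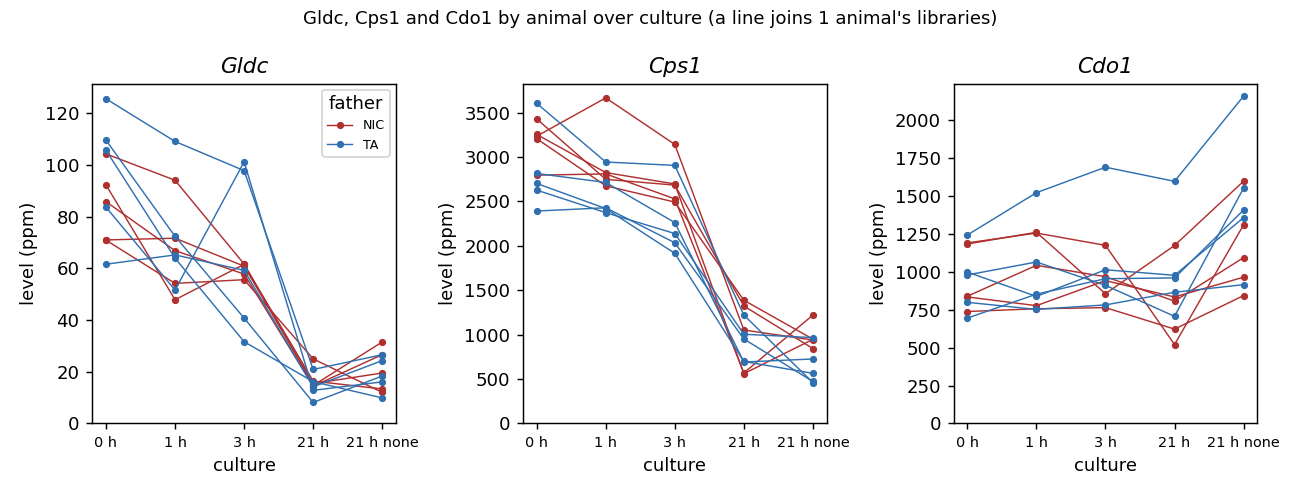
Levels of Gldc, Cps1 and Cdo1 (y axis, ppm) in the cultures (x axis, not to scale in time) for each of 10 animals, NIC in red and TA in blue; lines join libraries of 1 animal, and 21 h none is a second culture at the same time as 21 h. Gldc and Cps1 at 21 h lie below every value of 0, 1 and 3 h, while Cdo1 does not.

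In the 21 h none culture the picture was close to that at 21 h. Against 0 h, 43 of 46 genes fell and 1, Cdo1, rose, with 17.1% of all genes lower and 47.1% higher (64.2% in all); the median was -1.34, against 0.49 over all genes. Cdo1 had 843 to 2158 ppm (median 1333) at 21 h none and 695 to 1242 ppm (median 909) at 0 h (log2 difference 0.45 ± 0.14, adjusted p = 0.00455, limma), higher in 10 of 10 animals as in 18.6% of all genes tested. This rise depended on scaling: after rescaling the libraries by median ratios, which moved the median over all genes from 0.49 to 0.09, Cdo1 stood at -0.016 (adjusted p = 0.942) while 44 other genes were lower; over all genes 5246 were higher and 1901 lower as deposited, and 3426 and 3003 after rescaling. Got1 and Sdsl did not pass, at -0.29 ± 0.14 and -0.09 ± 0.35.

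Directly compared, 21 h none against 21 h, 11 genes were lower (3.27% of all genes) and 2, Amt and Cdo1, higher (23.2% of all genes, 26.5% in both directions). At 21 h, Amt was listed at 0 in the shallow libraries of NIC animals 14 and 15. Without the NIC 21 h libraries of animals 11, 14 and 15, 1 gene was higher (22.4% of all genes). After rescaling by median ratios, 0 genes were higher (6.91% of all genes). The 11 were Hgd, Afmid, Haao, Uroc1, Amdhd1, Ftcd, Gls2, Agxt, Asl, Arg1 and Ivd, with log2 differences of -0.70 (Hgd) to -0.34 (Arg1). Hgd had 42.3 to 317 ppm (median 147) at 21 h none and 103 to 317 ppm (median 212) at 21 h, with wide overlap (log2 difference -0.70 ± 0.17, adjusted p = 0.0035, limma). These calls rested on single animals: without TA animal 1, TA animal 2 or NIC animal 12, 3, 2 and 4 genes were called in all (10.2%, 11.7% and 16.4% of all genes), and without NIC animal 15, 21 (38.3%). Over all genes, 2585 were higher and 364 lower as deposited, and 757 and 684 after rescaling by median ratios.

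The second question was whether the father's exposure went with a different level of these genes. Over all libraries, NIC against TA, none of the 46 passed limma's test (14, or 30.4%, at an unadjusted p under 0.05, against 14.9% of all genes), with 0.135% of all genes called higher and 0.0808% lower (0.216% in all); 35 log2 differences were positive and the median was 0.15, against -0.11 over all genes. The smallest p was that of Asl, the urea cycle lyase (log2 difference 0.40 ± 0.10, adjusted p = 0.0534, limma). Asl at 0 h had 878, 924, 916, 844 and 933 ppm in NIC animals, against 719, 866, 872, 647 and 676 ppm in TA animals. At 1 h it had 810.3, 815, 884, 828 and 876 ppm in NIC animals, against 691, 789.7, 753, 584 and 576 ppm in TA animals, and at 3 h 853, 932, 832, 864 and 899 ppm in NIC animals, against 709, 831, 734, 494 and 652 ppm in TA animals. All NIC animals lay above all TA animals at 1 h, 3 h and 21 h none, but not at 0 h or 21 h. Of all genes, 0.44%, 0.341% and 0.368% had all NIC above all TA libraries in those 3 cultures.

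The 7 next in order of p were Sds (log2 difference 0.67 ± 0.17), Prodh (0.38 ± 0.10), Arg1 (0.35 ± 0.10), Bckdha (0.38 ± 0.11), Tdo2 (0.49 ± 0.15), Oat (0.56 ± 0.22) and Cps1 (0.22 ± 0.09), all higher in NIC and none past the threshold (adjusted p = 0.0653 to 0.244, limma). With the animal as unit, an exact permutation of fathers within the dates of the library titles (14400 splits, 2-sided, 46 genes computed) gave p = 0.00611 for Bckdha, 0.00681 for Asl, 0.0136 for Tdo2, 0.014 for Arg1, 0.0144 for Sds, 0.0364 for Cps1, 0.0889 for Prodh and 0.429 for Oat, none adjusted. Of the other 38 genes, 3 were under 0.05, with Kmo (0.0297) and Gcdh (0.041) higher in NIC and Glud1 (0.0436) lower. As the permutation covered only the 46 genes, no share over all genes can be set beside these counts. The 8 genes named first were picked by their limma p in the same libraries, so their permutation p is not separate evidence. Sds was above the TA median in 10 of 10 NIC animals, and Asl in 8 of 10. Within the dates, however, the Asl difference was 0.36 and 0.69 in the time course animals and 0.03 and 0.14 in the 2 h animals, and that of Sds was 0.78 and 0.92 in the time course, -0.17 at 2 h with dexamethasone and 0.26 without it. Without NIC animal 13, 7 genes passed (Asl, Sds, Tdo2, Arg1, Bckdha, Prodh and Hibch), with 1.82% of all genes called higher and 5.13% lower, and without TA animal 2 there were 3, with 0.233% and 0.143%.

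Values at 0 h show how far the fathers overlapped. Sds had 443, 562, 369, 679.8 and 645 ppm in NIC animals, against 312, 504, 386, 456 and 342 ppm in TA animals. Arg1 had 1643, 1728, 1342, 1991 and 2172 ppm in NIC animals, against 1396, 1793, 1559, 1711 and 1706 ppm in TA animals. Tdo2 had 2717, 2515, 1536, 2982 and 2978 ppm in NIC animals, against 2325, 2300, 1952, 1775 and 2284 ppm in TA animals. In all of these the ranges overlapped. Bckdha had 172, 156, 123, 168 and 196 ppm in NIC animals, against 143, 155, 142, 142 and 148 ppm in TA animals, and Prodh had 100, 138, 139, 116 and 116 ppm in NIC animals, against 73.1, 108, 65.7, 72.2 and 89.4 ppm in TA animals. Cps1 had 3206, 3429, 3233, 3254 and 2795 ppm in NIC animals, against 2391, 3604, 2814, 2702 and 2627 ppm in TA animals. Oat, ornithine aminotransferase, had 292, 477, 299, 183 and 306 ppm in NIC animals, against 391, 108, 76.8, 236 and 184 ppm in TA animals. None of these genes was without overlap at 0 h. Of the other pathway genes, 2 of 59 passed over all libraries, among them Tat, tyrosine aminotransferase, the glucocorticoid-responsive first step of tyrosine breakdown (log2 difference 0.56 ± 0.12, adjusted p = 0.0145, limma). Tat at 0 h had 3010, 3189, 2267, 3345 and 3701 ppm in NIC animals, against 2161, 2443, 2344, 1875 and 2392 ppm in TA animals. Tat did not pass on 1 mean per animal (adjusted p = 0.354, limma) or after rescaling by median ratios (adjusted p = 0.11), and it was lost without TA animal 4 (adjusted p = 0.172), TA animal 1 (0.0538), NIC animal 15 (0.103), NIC animal 11 (0.0934) or NIC animal 12 (0.069).

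By culture, no gene passed between fathers at 0, 1, 3 or 2 h (limma, with 3, 1 and 3 genes at an unadjusted p under 0.05 at 0, 1 and 3 h, against 1.32%, 0.835% and 3.01% of all genes, and none at 2 h with or without dexamethasone), where 0% of all genes were called. On reads recovered from the libraries at 2 h with dexamethasone, edgeR called none either, with 1 gene at an unadjusted p under 0.05. Of all 8621 genes in that edgeR test, 655 were under 0.05 unadjusted and 1 was called. All NIC libraries lay above all TA libraries in 4 genes and below in 2 at 2 h with dexamethasone (25.4% and 11.1% of all genes), and in 3 and 2 genes without it (3.22% and 6.18% of all genes). At 21 h no gene passed (9, or 19.6%, at an unadjusted p under 0.05, against 22.5% of all genes), with 1.41% of all genes called higher and 4% lower (5.41% in all), and the median was -0.03. Markers of other cells differed between these 21 h libraries: 4 of 7 stellate markers were higher in NIC (median log2 difference 1.76; summed level 33.3 to 2388 ppm in NIC cells and 21.5 to 105 ppm in TA cells), as was 1 of 12 Kupffer cell markers (median 1.10; 238 to 1887 and 204 to 565 ppm). The NIC libraries at 21 h also include the shallow ones of animals 11, 14 and 15. The part of these markers and of depth in the 21 h values was not tested.

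At 21 h none, in contrast, 14 of 46 genes were higher in NIC and none was lower, with 1.29% of all genes called higher and 3.84% lower (5.14% in all). The 14 were Hpd and Hgd of tyrosine, Tdo2, Afmid, Kmo and Kynu of tryptophan, Cps1, Otc, Asl and Arg1 of the urea cycle, and Sds, Prodh2, Bckdha and Gcdh. The median over the 46 was 0.63, against -0.47 over all genes, and 42 of 46 were positive. After rescaling by median ratios, which moved the median of all genes to -0.04, the median was 1.11 and 21 genes were called, with the 14 among them. Over all genes, 144 were higher and 428 lower as deposited, and 283 and 23 after rescaling. Within the 2 title dates of the time course the median at 21 h none was 0.71 (3 NIC and 3 TA animals) and 0.46 (2 and 2). In the same animals it was 0.28 and -0.35 at 21 h, and 0.21 and -0.0039 at 0 h. The NIC animals behind the -0.35 were 14 and 15, and those behind the 0.28 included animal 11, all with shallow 21 h libraries. In animals 14 and 15 Amt, Mccc1 and Sdsl were listed at 0 at 21 h. The part of depth in the 21 h medians was not tested.

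Sds had 253, 173, 154, 597 and 482 ppm in NIC animals, against 16.5, 41.9, 115, 71.1 and 253 ppm in TA animals, and of the TA animals only animal 5 lay within the NIC range (log2 difference 2.06 ± 0.32, adjusted p = 0.00012, limma). Asl had 562, 424, 415, 615 and 864 ppm in NIC animals, against 203, 212, 349, 189.7 and 368 ppm in TA animals, without overlap (log2 difference 1.13 ± 0.19, adjusted p = 0.000738, limma). Both passed in each of 30 alternative settings. Arg1 had 759, 628, 603, 1339 and 1361 ppm in NIC animals, against 221, 369, 526, 416 and 908 ppm in TA animals (log2 difference 1.00 ± 0.19, adjusted p = 0.004, limma). Here TA animal 5 lay above 3 of the 5 NIC animals, as it did in Tdo2, with 930.2, 767, 287, 1886 and 1854 ppm in NIC animals, against 206, 257, 528, 296 and 995 ppm in TA animals (log2 difference 1.28 ± 0.31, adjusted p = 0.0232, limma). For Cps1 there were 949, 843, 939, 947 and 1220 ppm in NIC animals, against 472, 459, 726, 564 and 966 ppm in TA animals (log2 difference 0.67 ± 0.19, adjusted p = 0.0348, limma), again with TA animal 5 among the NIC values.

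**Figure D5:**
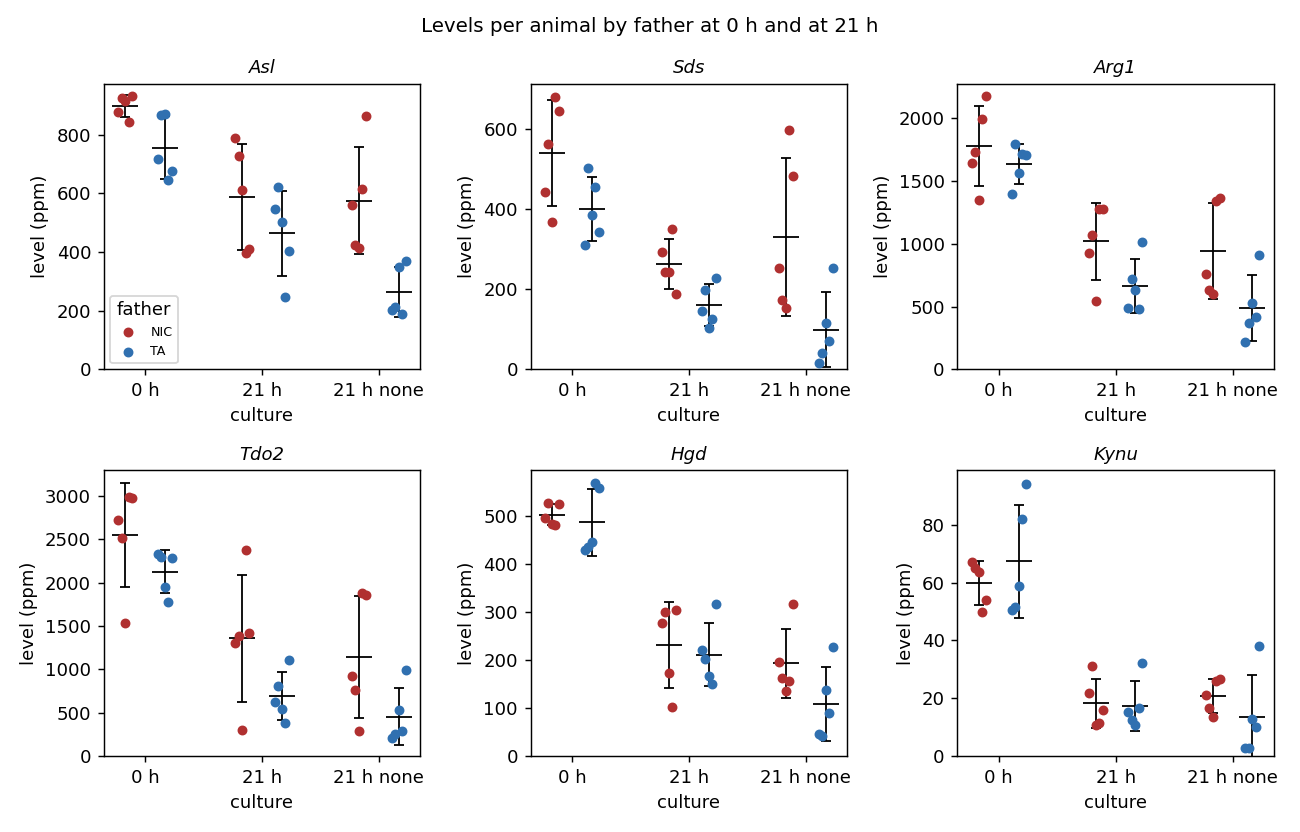
Levels (y axis, ppm) of Asl, Sds, Arg1, Tdo2, Hgd and Kynu at 0 h, 21 h and 21 h none (x axis) in NIC (red) and TA (blue) animals; points are single animals, bars and whiskers are mean and SD of 5. The fathers separate for Asl at 21 h none and overlap in the other panels, where the highest TA point at 21 h none is animal 5.

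In tyrosine and tryptophan breakdown the same animals set the pattern. Hgd had 196, 163, 136, 156 and 317 ppm in NIC animals, against 45.9, 42.3, 138, 90 and 227 ppm in TA animals at 21 h none (log2 difference 1.05 ± 0.26, adjusted p = 0.0246, limma), and Kynu had 21.3, 16.6, 13.6, 25.9 and 26.8 ppm in NIC animals, against 2.68, 2.92, 13, 10.2 and 38.2 ppm in TA animals (log2 difference 1.12 ± 0.31, adjusted p = 0.033, limma). TA animals 1 and 2 were the lowest in both genes, and TA animal 5 exceeded 4 of 5 NIC animals in Hgd and all of them in Kynu. The count of 14 rested on such animals: without TA animal 1, NIC animal 14 or NIC animal 15 it was 2 (Asl and Sds, with 0.0359% to 0.0362% of all genes called higher), without TA animal 2 or 4 it was 3 (Arg1, Asl and Sds, with 0.161% and 0.117%), and without TA animal 5 it was 27 (3.29%). Of the other pathway genes 10 of 59 were higher in NIC at 21 h none and none was lower, among them Mat1a (methionine adenosyltransferase, 1.35 ± 0.26, adjusted p = 0.004) and Tat (1.09 ± 0.25, adjusted p = 0.0169, limma).

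The hepatocyte marker sum at 21 h none was 122600 to 173500 ppm in NIC cells and 88110 to 145000 ppm in TA cells, and 1 of its 11 genes was higher (median log2 difference 0.33). The stellate sum was 36.3 to 235 ppm in NIC cells and 28.8 to 73.5 ppm in TA cells, with 0 of 7 called; the Kupffer sum was 182 to 346 and 173 to 307 ppm. Their part in the difference between fathers was not tested.

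Whether the change over culture differed between fathers was tested directly. For 21 h against 0 h no gene passed (4 at an unadjusted p under 0.05, against 14.5% of all genes; 0.018% of all genes called higher and 0.18% lower, 0.198% in all). For 21 h none against 0 h none passed either (15, or 32.6%, at an unadjusted p under 0.05, against 18.3% of all genes; 0.00898% of all genes called), and the smallest p was that of Sds (interaction 1.64 ± 0.42, adjusted p = 0.179, limma). For 21 h none against 21 h none passed (22, or 47.8%, at an unadjusted p under 0.05, against 18.1% of all genes; 0% of all genes called), although 14 did without NIC animal 12, all higher, with 1.99% of all genes called higher and 5.12% lower. The higher levels at 21 h none are therefore not shown to be particular to that culture.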

How the data were processed

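Hepatocytes of 20 F1 males were profiled by strand-specific RNA-Seq after rRNA depletion. The authors mapped reads to mm10 with Bowtie2 and tested with DESeq2 under Holm's correction. Versions, the counting tool and the annotation for these libraries are not given in the sources used here. The authors deposited TPM values for 56 libraries and, for the 4 libraries at 2 h with dexamethasone, CPM values. In the CPM columns whole reads could be recovered.

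Values were taken as log2(ppm + 1), and the 11135 of 23126 genes with a mean above 1 ppm were fitted in limma 3.58.1 (R 4.3.3, statmod 1.5.0) with an intensity trend, terms for father, culture and date, and the animal as random block, with Benjamini-Hochberg adjustment over all genes. As the values were normalized, DESeq2 was not used. Libraries of 1 animal share a block: their residuals correlated with a median of 0.167 over 100 pairs, against -0.01 over 1125 pairs of different animals. Recovered reads were tested with the quasi-likelihood test of edgeR 4.0.16. Scripts were tested on simulated data. The 47 genes and the lists were chosen with earlier results of these data known.

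Described in full were the 8 genes of smallest p between fathers over all libraries, up to 6 of largest change at 21 h with 1 sign in 10 animals, up to 3 that passed in each direction at 1 h and 3 h, the gene of smallest p at 21 h in each group, the pairs Sds with Sdsl and Prodh with Prodh2, and of the other pathway genes the 3 of largest change in each direction and those that passed between fathers. Of these other pathway genes, 2 are not reported here. Coordinates are from GENCODE M21 and promoters from RefSeq, both GRCm38. Alternatives were other pseudocounts, filters, scalings, blocks, weights, corrections and library sets. The cultures with and without dexamethasone at 2 h differ in unit, date and animals and were not compared.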

Additional observations from a re-analysis of the deposited data

Results flagged for a closer look

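Of 320 groups of 5 animals (32 genes in 5 cultures and 2 fathers), 23 held an animal far from the others by Dixon's criterion; chance flags about 1 in 20 groups. TA animal 5 stood apart most often at 21 h and 21 h none. At 21 h it had 126 ppm of Amdhd1 (other TA animals 19.7 to 46.9), 74.2 ppm of Bckdha (33.6 to 43.8), 163 ppm of Ftcd (59.2 to 85.8) and 32.1 ppm of Kynu (10.6 to 16.7). At 21 h none it had 97.8 ppm of Amdhd1 (7.92 to 20.5), 75.6 ppm of Bckdha (16.9 to 31.0), 135 ppm of Hal (4.49 to 38.1) and 50.9 ppm of Prodh (23.9 to 29.3). At 3 h it had 2041 ppm of Tdo2 (1870 to 1901).

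NIC animal 13 was high in Sdsl, with 29.7 ppm at 0 h (other NIC animals 9.88 to 15.2), 32.8 ppm at 1 h (9.29 to 12.9) and 35.1 ppm at 3 h (8.46 to 14.3). It also had 463 ppm of Aass (237 to 295) and 3665 ppm of Cps1 (2675 to 2824) at 1 h, and 25.0 ppm of Gldc at 21 h (14.4 to 16.4). At 21 h, the shallow library of NIC animal 14 had 186 ppm of Bckdha (39.2 to 76.8) and that of NIC animal 15 had 30.0 ppm of Prodh2 (57.2 to 64.2).

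Single values were 1220 ppm of Cps1 in NIC animal 15 at 21 h none (843 to 949), 56.9 ppm of Amdhd1 in NIC animal 11 at 0 h (78.6 to 85.2) and 324 ppm of Aass in TA animal 1 at 0 h (259.7 to 276). In TA animals there were also 1689 ppm of Cdo1 in animal 4 at 3 h (781 to 1013), 1106 ppm of Hpd in animal 3 at 1 h (1480 to 1618) and 127 ppm of Prodh in animal 2 at 3 h (72.3 to 87.4).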

How the results depend on the processing

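The fall at 21 h against 0 h was called in 44 to 45 genes when each animal was left out in turn, as was the number called at 21 h none against 0 h (44 to 45). With no replicate block or with the animal as fixed replicate block both counts were 44, and under Holm's correction 38. With no replicate block, 47.9% of all genes were called at 21 h and 61.8% at 21 h none. Cdo1 at 21 h none against 0 h stood at -0.016 after rescaling by median ratios, against 0.45 as deposited. The count of 0 between fathers over all libraries became 6 with no replicate block, 3 with array weights, 2 with the time course libraries only, and 1 with a pseudocount of 5 or with no filter, and 0 to 7 without single animals (7 without NIC animal 13, 3 without TA animal 2, 2 without NIC animal 19 or TA animal 5, 1 without NIC animal 16 or 18). The share of all genes called was 2.55% with no replicate block, 0.736% with array weights and 0.325% with the time course only. It was 6.95% without NIC animal 13, 0.376% without TA animal 2, 0.567% without NIC animal 19 and 0.413% without TA animal 5. Without NIC animals 16 and 18 it was 0.306% and 0.225%. The count of 14 at 21 h none became 28 with array weights, 23 without the NIC 21 h libraries of animals 11, 14 and 15, and 2 to 27 without single animals. With array weights 2.6% of all genes were called higher and 4.3% lower. Without those NIC libraries the shares were 3.14% and 16.7%. Between fathers at 21 h the count was 1 with a pseudocount of 0.5 and 0 to 5 without single animals (5 without NIC animal 13). Without NIC animal 13, 15.4% of all genes were called. Array weights also gave 2 calls between fathers at 3 h, 1 at 2 h without dexamethasone, 2 at 1 h against 0 h, 4 at 3 h against 0 h and 16 for father by time at 21 h none. In the same order, those fits called 2.9%, 2.79%, 2.72%, 11.4% and 6.49% of all genes. Father by time at 21 h none gave 3 calls without the NIC 21 h libraries named above (1.57% of all genes). It gave 0 to 1 without single animals (1 without TA animal 5, 0.00897% of all genes). The interaction at 21 h gave 0 to 2 (2 without NIC animal 13, 3.24% of all genes). Father by culture gave 0 to 14 (14 without NIC animal 12 and 1 without NIC animal 13, 7.11% and 1.25% of all genes). For 21 h none against 21 h, 13 calls became 33 with array weights (52.2% of all genes), 8 with no filter, 0 under Holm's correction and 2 to 21 without single animals. After rescaling by median ratios there were 17 calls in that comparison, all lower, with 6.25% of all genes called lower and 6.91% higher. Neither form of the block changed another count by over 1.5 times. Leaving out single animals gave 0 to 0 calls in the other comparisons. The causes were not tested. Alternatives for 21 h none between fathers, for the further interactions and for the separate cultures were added after seeing the data. Depth limits the low genes at 21 h, where the shallowest libraries list Amt, Mccc1 and Sdsl at 0. Nags and Bckdhb also had a lowest value of 0 ppm at 21 h. So did Hykk, Suox, Arg2 and Asrgl1 among NIC animals.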

Other observations

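While the catabolic genes fell, genes of amino acid synthesis and of the ATF4 response, in which the factor Atf4 raises amino acid synthesis and uptake under stress, went the other way. Of 14 such genes, 12 were higher and 1 was lower at 21 h against 0 h, with a median log2 difference of 1.93, against 0.12 over all genes. Of all 11135 genes tested, 3232 were higher and 2418 lower. Psat1, of serine synthesis, had 11.1 to 76.4 ppm (median 29.9) at 21 h and 0 to 8.91 ppm (median 0.601) at 0 h (log2 difference 4.24 ± 0.51, adjusted p = 1.32e-09, limma). Asns, asparagine synthetase, had 19.5 to 111 ppm (median 37.9) at 21 h and 1.96 to 15.4 ppm (median 5.17) at 0 h (log2 difference 2.96 ± 0.40, adjusted p = 2.31e-08, limma). The cystine carrier Slc7a11 (log2 difference 3.50 ± 0.41, adjusted p = 5.87e-10, limma), the folate enzyme Mthfd2 (log2 difference 3.25 ± 0.42, adjusted p = 9.31e-09, limma) and Phgdh, the first enzyme of serine synthesis (log2 difference 3.14 ± 0.35, adjusted p = 2.25e-10, limma), were higher as well. The exception was Atf3, which was lower (log2 difference -0.50 ± 0.16, adjusted p = 0.00978, limma). These genes were chosen for mention after their values were seen.

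Of 14 regulators of the catabolic genes, 1 was higher and 10 were lower at 21 h against 0 h. Their median log2 difference was -0.64, against 0.12 over all genes. Over all 11135 genes tested, 3232 were higher and 2418 lower. Atf4 itself had 180.2 to 605 ppm (median 276) at 21 h and 53 to 174 ppm (median 83.1) at 0 h (log2 difference 1.81 ± 0.23, adjusted p = 8.56e-09, limma). Hnf4a, a factor of hepatocyte identity, had 53.4 to 224 ppm (median 169) at 21 h and 250.5 to 394 ppm (median 322) at 0 h (log2 difference -1.09 ± 0.15, adjusted p = 5.33e-08, limma). Klf15, a glucocorticoid-responsive factor of amino acid breakdown (log2 difference -2.36 ± 0.34, adjusted p = 1.36e-07, limma), Cebpa (log2 difference -1.18 ± 0.14, adjusted p = 4.43e-10, limma) and the glucagon receptor gene Gcgr (log2 difference -0.94 ± 0.15, adjusted p = 8.27e-07, limma) were lower too. Of 13 amino acid transporters, 4 were higher and 7 were lower at 21 h against 0 h, with a median log2 difference of -0.54. The counts over all genes are those given for the regulators. At 21 h none, the summed level of the 14 synthesis and ATF4 genes was 696 to 1274 ppm in NIC cells and 894 to 1668 ppm in TA cells. None of the 14 passed between fathers in limma, with a median log2 difference of -1.04, against -0.47 over all genes.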
